A study of Mus musculus with 4 samples.

Results

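The digestive enzymes of the pancreas are made by acinar cells, the exocrine cells that surround the islets, and their transcripts are found in islet preparations wherever acinar tissue comes along with the islets. A set of 32 acinar genes was followed here: 23 genes of secreted hydrolases and their cofactors, 5 genes of other zymogen granule or secretory proteins and 4 genes of acinar transcription factors. They were found by matching the accession of each array probe to a mouse gene symbol, and the brightest probe was taken where a gene had several. A probe was matched for 30 of the 32 genes, and all 30 were well above background on all 4 arrays and so passed the filter on dim probes. They are 30 of 26378 genes measured. Ctrc and Try10, a chymotrypsinogen and a trypsinogen gene, had no matched probe and were not analysed here.

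Islets were isolated from 2 Pdx1-Cre mice, named wild type in the sample titles, and from 2 mice of genotype Pdx1-Cre:Rbf/f, named Rb-deficient. All 4 mice thus carried the Cre transgene, and the Rb-deficient mice carried floxed alleles of Rb, the retinoblastoma gene, as well. Each mouse gave 1 single-colour Agilent array, hybridised with Cy3-labelled cRNA per the labels. The labels used here give no age, sex or strain. Pdx1 is active in the progenitors from which the endocrine, acinar and ductal cells of the pancreas all arise, so that the deletion need not be limited to islet cells.

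Acinar cells store inactive enzyme precursors, the zymogens, in granules and release them towards the duct on stimulation by cholecystokinin or acetylcholine. Their genes are driven by PTF1, a complex in which PTF1A pairs with a common basic helix-loop-helix partner and, in the mature cell, RBPJL. BHLHA15, also called MIST1, directs the secretory architecture of the cell, and NR5A2 is a nuclear receptor that acts with PTF1 on many enzyme genes.

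Values are log2 of the scanner's processed signal, scaled so that 0 is the 75th percentile of each array's non-control spots, and 1 unit is a 2-fold step. Of all probes, 76.5% were well above background on wild type array 1 and 59.0% to 59.9% on the other 3 arrays. Wild type array 1 also stood apart in sex-linked transcripts: the Y-linked Uty, Ddx3y, Eif2s3y and Kdm5d were well above background there and on no other array, and Xist was well above background on the other 3 arrays and not on that one. Rb1 had log2 signals of 0.28 and 0.86 in wild type and -0.48 and -0.90 in Rb-deficient islets. Its mean was 2.40-fold lower in the Rb-deficient islets, with no overlap between the groups, and whether its probe lies in the deleted stretch is not known here. The beta cell markers Ins1 and Ins2 and all 10 genes of the beta cell list were well above background on all 4 arrays, as the label of islet cells implies.

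The question was how far acinar transcripts differed between the islet preparations of both genotypes. All 30 measured acinar genes had a lower mean in Rb-deficient than in wild type islets on this scale (27 with quantile normalization and 26 with scaling to the array median, which takes the all-gene median from -0.07 to 0.37), with a median log2 difference of -1.02, which is 2.03-fold lower, against a median of -0.07 over all genes. For 22 of the 30 both Rb-deficient arrays lay below both wild type arrays, where 20.7% of all genes did so and 15.3% lay above. At least 2-fold lower in mean were 16, where 8.03% of all genes were, and 1.70% were as much higher. With scaling to the array median 10 were at least 2-fold lower, and with quantile normalization 12, where the share of all genes was not counted. None of the 30 was called by limma at an adjusted p (Benjamini-Hochberg) under 0.05, nor was any other gene (0% called, adjusted p 0.514 to 0.870 for the 30). At an unadjusted p under 0.05, limma counted 7 of the 30, all lower, against 4.18% of all genes lower and 1.48% higher. With 2 mice a group the smallest two-sided p of an exact permutation test on a single gene is 0.33, so none was run.

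Rb-deficient array 2 was the lowest of the 4 arrays in all 30 genes, against 40.2% of all genes. It was so in 26 with quantile normalization, against 30.6%, and in 27 with scaling to the array median, against 17.9%. Wild type array 1 was the highest in all 30, but this place rested on the scale: it was so in 19 with quantile normalization and in 3 with scaling to the array median. The middle places were taken by wild type array 2 and then Rb-deficient array 1 in 22 genes and in the reverse order in 8. The arrays of a group differed too. Rb-deficient array 2 lay below array 1 by a median of 0.84 (a log2 difference of -0.84, range -2.31 to -0.41). It was the lower in all 30 genes, also with scaling to the array median. Wild type array 2 differed from array 1 by a median of -0.32 (range -1.13 to -0.06). It was the lower of the pair in all 30 genes here and in 5 with scaling to the array median. The sizes of these gaps depend on the 75th percentile signals used for scaling. Those were 361 and 411 for the wild type arrays and 364 and 488 for the Rb-deficient ones. In the 8 genes named above, the arrays stood in the reverse order of these signals. The part of the scaling in the gaps was not tested. Between the nearest mice of the groups the median log2 difference, Rb-deficient array 1 minus wild type array 2, was -0.32. In 24 of the 30 genes the gap between the Rb-deficient arrays was larger, on this scale, than that gap between the groups. This was so for 62.3% of all genes. Without Rb-deficient array 2, 29 of 30 genes were lower in mean, 6 at least 2-fold, and without Rb-deficient array 1, 30 of 30 and 22.

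**Figure D1:**
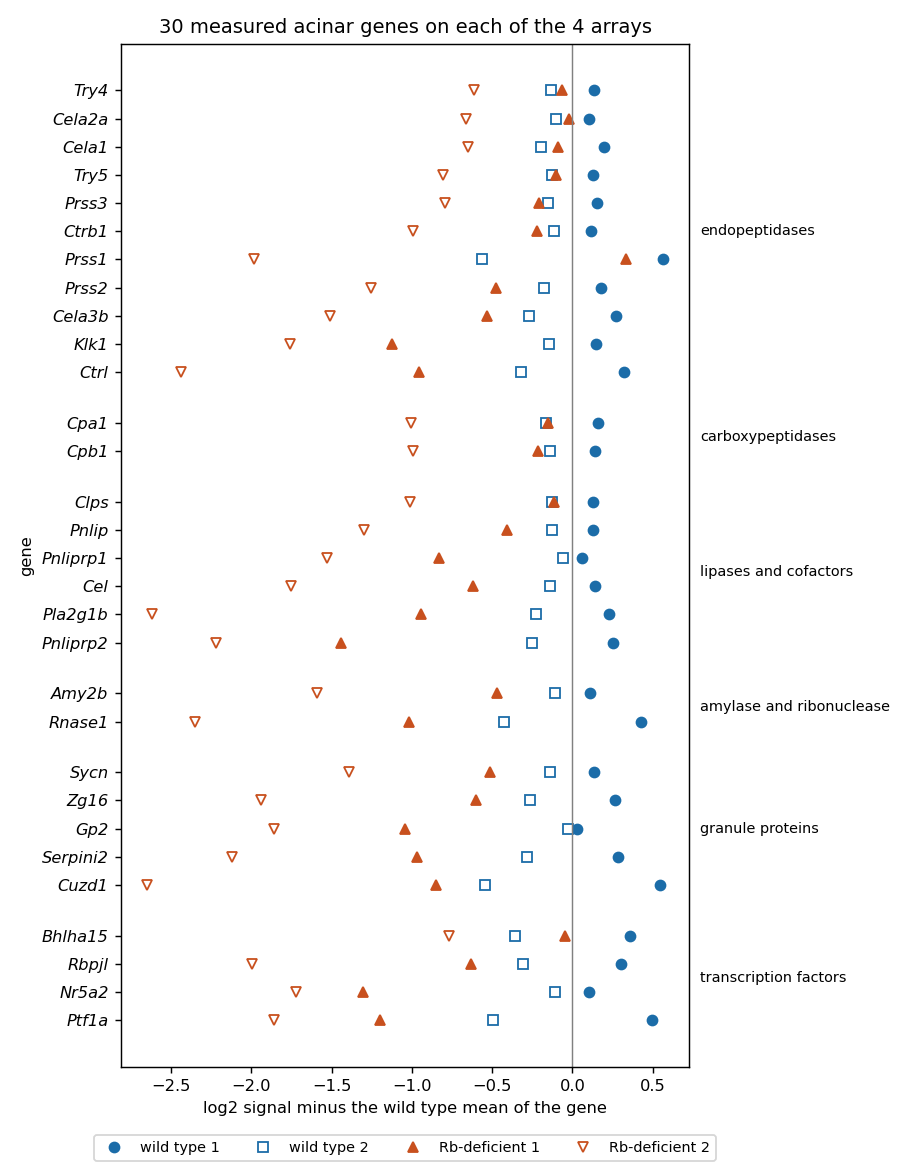
Each row is 1 of the 30 measured acinar genes, grouped by role, and each point its log2 signal on 1 array minus the mean of the 2 wild type arrays. Circles (wild type array 1) are farthest right and open downward triangles (Rb-deficient array 2) farthest left in every row, and filled upward triangles (Rb-deficient array 1) are left of the open squares (wild type array 2) in 22 rows and right of them in 8. The place of wild type array 1 holds for this scale and for 3 of 30 genes with scaling to the array median.

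Among the endopeptidases, which cut within protein chains, 11 of 13 genes were measured and their median log2 difference was -0.61. Ctrl, a chymotrypsin-like protease, had the largest difference of them, with log2 signals of 9.18 and 8.53 in wild type and 7.90 and 6.41 in Rb-deficient islets. The Rb-deficient values were both below the wild type values, the second by far the more, and the mean was 3.24-fold lower (log2 difference -1.70, standard error 0.61, limma adjusted p 0.863). Klk1, a tissue kallikrein, stood at 7.48 and 7.19 in wild type and at 6.21 and 5.58 in Rb-deficient islets. Here the mice of each group lay close together, and the mean was 2.72-fold lower (standard error 0.30 on the log2 scale, limma adjusted p 0.665, unadjusted p 0.010). For Ctrb1, the chymotrypsinogen B gene, the log2 signals were 9.85 and 9.62 in wild type and 9.51 and 8.74 in Rb-deficient islets, a mean 1.52-fold lower with no overlap of the groups.

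The trypsinogen genes encode the protease that activates the other zymogens. Prss2 had log2 signals of 9.80 and 9.45 in wild type and 9.15 and 8.37 in Rb-deficient islets, and Prss3 of 9.43 and 9.12 against 9.06 and 8.48. In both genes the groups did not overlap, with means 1.82-fold and 1.42-fold lower. Try4 (9.31 and 9.04 in wild type, 9.11 and 8.56 in Rb-deficient) and Try5 (9.81 and 9.56, 9.59 and 8.88) had Rb-deficient array 1 between the wild type arrays, with means 1.26-fold and 1.37-fold lower. Prss1 spread most within a group: it was at 2.96 and 1.83 in wild type and at 2.72 and 0.41 in Rb-deficient islets, so that its mean difference of -0.83 was smaller than its standard error of 0.95. Without Rb-deficient array 2 that difference turned to 0.33. In the RefSeq gene order of the GRCm38.p6 assembly, Try4, Try5, Try10 and Prss3 follow each other, as do Prss1 and Prss2. Signal shared between such similar genes was not tested, as probe sequences were not used here.

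Of the elastase genes, Cela3b had log2 signals of 10.01 and 9.47 in wild type and 9.21 and 8.23 in Rb-deficient islets, a mean 2.03-fold lower with no overlap. Cela1 (9.24 and 8.85 in wild type, 8.96 and 8.40 in Rb-deficient) and Cela2a (10.42 and 10.22, 10.30 and 9.66) again had Rb-deficient array 1 between the wild type arrays. Their means were 1.29-fold and 1.27-fold lower, within about 1 standard error (0.30 on the log2 scale for each).

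Both carboxypeptidases, which take single residues from the end of peptides, differed by similar amounts. Cpa1 stood at 9.67 and 9.34 in wild type and at 9.36 and 8.50 in Rb-deficient islets. Cpb1 was at 9.86 and 9.58 against 9.51 and 8.73. The means were 1.49-fold and 1.52-fold lower, and the groups overlapped for Cpa1 only.

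Lipases and their cofactors, 6 of 6 measured, had a median log2 difference of -1.18, with no overlap in 5 (20.7% of all genes were lower without overlap). Pnliprp2, a lipase related to pancreatic lipase that also cleaves galactolipids, had the largest difference of all 30 genes. Its log2 signals were 6.07 and 5.57 in wild type and 4.37 and 3.60 in Rb-deficient islets, and the mean was 3.56-fold lower (standard error 0.38, limma adjusted p 0.656, unadjusted p 0.0092). The groups were farther apart than the mice within either of them. Pnlip, pancreatic lipase itself, and Pnliprp1, a relative with little lipase activity, are its neighbours on the chromosome in the RefSeq gene order. Pnlip was at 9.38 and 9.13 in wild type and 8.85 and 7.96 in Rb-deficient islets, and Pnliprp1 at 9.19 and 9.08 against 8.30 and 7.60. These means were 1.81-fold and 2.27-fold lower, so that the 3 neighbouring lipase genes differed by unequal amounts.

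Cel, the bile salt-dependent lipase that hydrolyses cholesterol esters, had log2 signals of 9.9996 and 9.72 in wild type and 9.24 and 8.11 in Rb-deficient islets, 2.28-fold lower in mean. Pla2g1b, a secreted phospholipase, was at 6.10 and 5.65 against 4.93 and 3.26, a mean 3.44-fold lower with most of the distance on Rb-deficient array 2. Clps encodes colipase, which anchors lipase to fat droplets. It was at 9.75 and 9.50 in wild type and at 9.51 and 8.61 in Rb-deficient islets, where array 1 fell between the wild type mice (1.48-fold lower in mean).

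The amylase gene Amy2b, whose product cuts starch, had log2 signals of 9.36 and 9.14 in wild type and 8.78 and 7.66 in Rb-deficient islets. Rnase1, the pancreatic ribonuclease, was at 7.66 and 6.81 against 6.22 and 4.88. The groups did not overlap in either gene, and the means were 2.04-fold and 3.22-fold lower (standard errors 0.45 and 0.60 on the log2 scale).

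Genes of granule and other secretory proteins, 5 of 5 measured, had a median log2 difference of -1.45. They had no overlap in any, against 20.7% of all genes lower without overlap. Gp2, the main glycoprotein of the zymogen granule membrane, was at 8.56 and 8.50 in wild type and at 7.49 and 6.67 in Rb-deficient islets. The wild type mice were almost equal, and the mean was 2.73-fold lower (standard error 0.34, limma adjusted p 0.714, unadjusted p 0.0146). Sycn encodes syncollin, a protein of the inner granule membrane, and was at 10.01 and 9.74 against 9.36 and 8.48. Zg16, a lectin of the granule, was at 9.47 and 8.94 against 8.61 and 7.27. Both were lower on each Rb-deficient array, by 1.94-fold and 2.41-fold in mean. Serpini2, a serine protease inhibitor family member, was at 5.58 and 5.01 in wild type and at 4.33 and 3.17 in Rb-deficient islets (2.92-fold lower). Cuzd1, a CUB and zona pellucida domain protein, was at 4.66 and 3.58 against 3.27 and 1.47 (3.36-fold lower), and the mice of each group differed by more than 1 log2 unit, so that its standard error of 0.78 was among the largest.

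The 4 transcription factors of the acinar cell were lower in mean as well (3 of 4 with scaling to the array median, Bhlha15 being the exception). Nr5a2 had the smallest p of all 30 genes. Its log2 signals were -0.42 and -0.63 in wild type and -1.83 and -2.25 in Rb-deficient islets, a mean 2.86-fold lower (log2 difference -1.51, standard error 0.24, limma adjusted p 0.514, unadjusted p 0.0037). The groups were well apart and the mice within each close. Ptf1a was at 1.24 and 0.26 in wild type and at -0.45 and -1.11 in Rb-deficient islets, 2.89-fold lower in mean (standard error 0.46). Rbpjl was at 3.66 and 3.05 against 2.72 and 1.36, a mean 2.49-fold lower (standard error 0.57). Bhlha15 differed from these 3 in that its groups overlapped. It was at 4.44 and 3.72 in wild type and at 4.04 and 3.31 in Rb-deficient islets, 1.33-fold lower in mean, within 1 standard error (0.41).

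Set side by side, the median log2 difference was -0.86 for 21 measured enzyme and cofactor genes and -1.41 for the 4 transcription factors. The same 2 medians were -0.81 and -1.20 with normexp background correction and -0.61 and -1.39 with quantile normalization. With scaling to the array median they were -0.42 and -0.98. Enzymes lay 0.41 below the wild type mean in median on Rb-deficient array 1 (a log2 difference of -0.41) and -1.30 on array 2, the transcription factors -0.92 and -1.79, and the granule genes -0.85 and -1.94. No test was made of the difference between these medians, and the enzyme probes were brighter as a class than those of the transcription factors, a property that moved with the difference. Across the 30 genes the log2 difference and the mean signal of the probe had a Pearson's r of 0.53 and a Spearman's rho of 0.63, given as a description over genes that share 4 arrays. Over all 26378 genes the same values were 0.34 and 0.42.

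Split by signal, the 18 acinar genes with a mean log2 signal of 8 or more had a median difference of -0.73 (range -1.70 to -0.34), and the 6 with a signal from 4 to 8 had -1.61 (range -1.83 to -1.44). Genes outside the acinar lists had medians of -0.26 over 61 genes and 0.02 over 1689 genes in the same ranges. In the brighter range, 80.3% of these other genes also had wild type array 1 highest and Rb-deficient array 2 lowest, against 14.3% in the range from 4 to 8. That order, on this scale, was thus common to very bright probes in general, and the acinar genes of that range differed in how far apart the groups were: 12 of 18 did not overlap, against 19.7% of the other genes. For the 6 acinar genes from 4 to 8 (Klk1, Pnliprp2, Pla2g1b, Rnase1, Gp2 and Serpini2) all did not overlap, against 12.1%. The 4 acinar genes from 0 to 4 had a median of -1.07, against 0.06, and 2 did not overlap, against 11.2%. The 2 below 0, Nr5a2 and Ptf1a, had a median of -1.52 and did not overlap. Other genes below 0 leaned the same way, with a median of -0.25 and 26.6% lower without overlap. Of these, 34.7% had wild type array 1 highest and Rb-deficient array 2 lowest. The part of probe brightness in the smaller differences of the brightest enzymes was not tested.

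**Figure D2:**
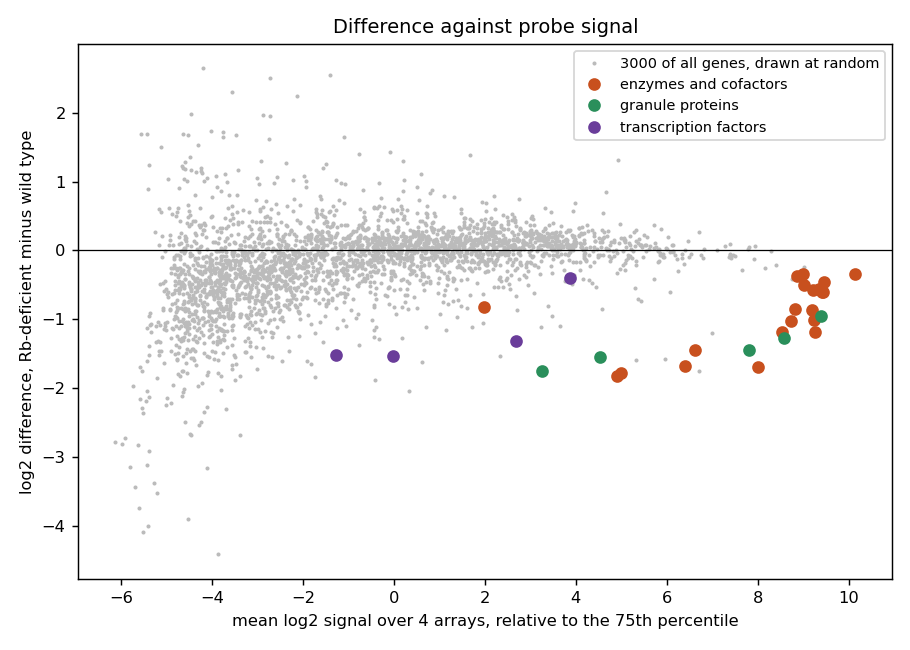
Log2 difference, Rb-deficient minus wild type, against the mean log2 signal of the probe over 4 arrays, for the 30 acinar genes (coloured by class) and a random draw of all genes (grey). All acinar genes lie below 0 on this scale (26 of 30 with scaling to the array median), with the smallest differences, near -0.34, among the brightest probes at the right.

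Because the islets were measured in bulk, fewer acinar cells in a preparation and less of these RNAs per acinar cell cannot be told apart. The second list of acinar genes, none of them among the 32, gave a like picture. Of its 21 genes 19 had a matched probe and 17 passed the filter, Dnase1 and Tmed11 being too dim. All 17 were lower in mean (15 with scaling to the array median), with a median log2 difference of -1.32. In 15 the groups did not overlap, against 20.7% of all genes lower without overlap. With scaling to the array median this was so in 11, against 7.12%. At an unadjusted p under 0.05 in limma were 9, against 4.18% of all genes lower (none after adjustment). The 4 with the smallest p were Tmed6, a cargo receptor family member of the early secretory pathway (2.64-fold lower), Erp27, a protein disulfide isomerase family member of the endoplasmic reticulum (3.02-fold), Cckar, the cholecystokinin receptor of the acinar cell (3.66-fold), and Aqp12, an acinar aquaporin (3.90-fold). Cckar stood at 2.02 and 1.57 in wild type and at 0.52 and -0.67 in Rb-deficient islets. The exceptions, chosen after their values were seen, were Amy2a5, another amylase gene, at 9.65 and 9.52 against 9.61 and 9.21, and Rab3d, a granule-associated GTPase gene, at 2.62 and 2.70 against 2.65 and 2.57. The 4 arrays of Rab3d lay close together.

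Lists of other cell types of the preparation differed among themselves. Over the 10 beta cell genes, 6 had a higher mean in Rb-deficient islets (all 10 with scaling to the array median), and relative to the wild type mean their median was 0.14 for the first Rb-deficient mouse and -0.08 for the second. Summed over the list, the log2 beta cell signal was 11.78 and 11.62 in wild type and 11.73 and 11.25 in Rb-deficient islets, while that of the 30 acinar genes was 13.96 and 13.65 against 13.45 and 12.63. Ins1 (9.91 and 9.72 in wild type, 9.81 and 9.36 in Rb-deficient) and Ins2 (10.45 and 10.27, 10.40 and 9.89) had Rb-deficient array 1 between the wild type mice and were 1.17-fold and 1.16-fold lower in mean. Scaling each array to the 10 beta cell genes in place of the 75th percentile left all 30 acinar genes lower in mean, 26 of them without overlap, against 20.5% of all genes on that scale.

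The macrophage list lay on the other side of the wild type mean, and likewise farther from it on Rb-deficient array 2. All 8 genes were higher in mean, as were 11052 of all 26378 genes, and none was called in limma. In 6 both Rb-deficient arrays lay above both wild type arrays, against 15.3% of all genes. The median was 0.38 for the first Rb-deficient mouse and 1.39 for the second. The summed log2 signal was 3.72 and 3.99 in wild type against 4.10 and 4.76 in Rb-deficient islets. Ductal genes were lower in mean in 7 of 8 (5 of 8 with scaling to the array median). In 5 the groups did not overlap, against 20.7% of all genes lower without overlap. That count was 3 with quantile normalization, against 14%, and 3 with normexp, against 16.5%. With scaling to the array median it was 2, against 7.12%. The ductal medians were -0.37 and -0.56, and the summed log2 signal was 4.39 and 3.85 against 3.47 and 3.88. The 5 alpha cell genes were lower in 4, with medians of -0.48 and -1.19 and summed signals of 9.64 and 9.72 against 9.50 and 8.33. Their median log2 difference of -0.78 was near the -0.86 of the acinar enzymes. In the same 4 the groups did not overlap, against 20.7% of all genes. This was so in 3 with quantile normalization, against 14%, and in 0 with scaling to the array median, against 7.12%. Summed signals were 9.83 and 10.03 against 9.58 and 10.54 for delta and PP cells, 4.82 and 4.76 against 4.77 and 5.09 for endothelium, and 2.23 and 2.33 against 1.97 and 3.02 for stellate cells and fibroblasts. The delta and PP sum joins genes that went unlike ways. Ppy was at 7.36 and 8.17 in wild type and at 6.30 and 9.28 in Rb-deficient islets, and Pyy at 6.42 and 7.13 against 5.70 and 8.64. Sst was at 9.37 and 9.26 against 9.31 and 8.87, and Hhex at -0.09 and 0.33 against -0.20 and 0.10. Every gene of these lists was well above background on all 4 arrays. The part of these cell types in the acinar differences was not tested.

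**Figure D3:**
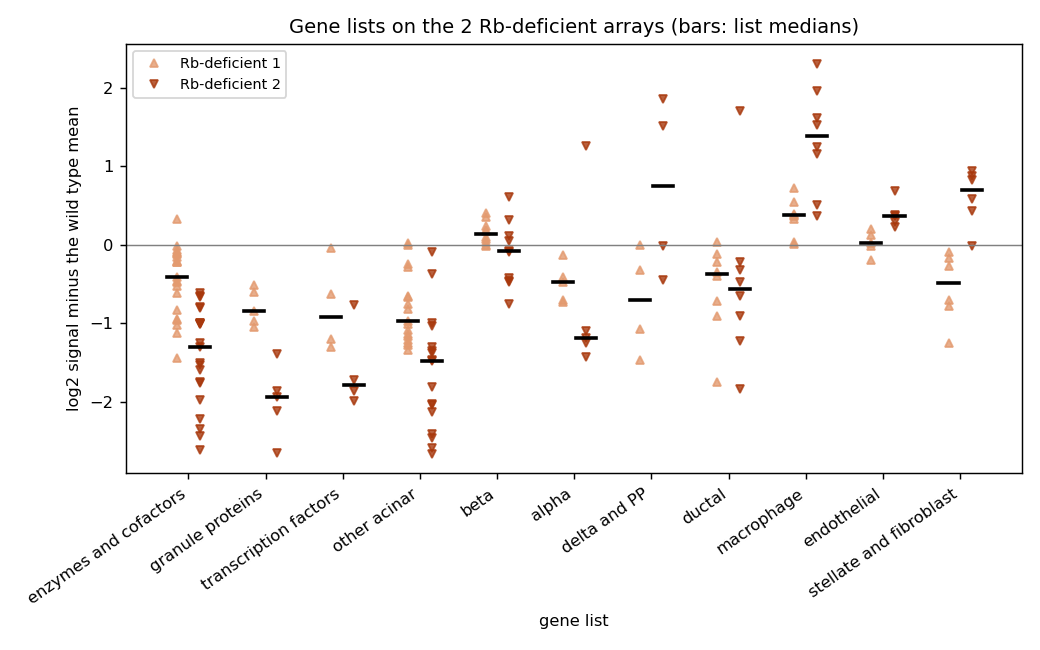
Log2 signal minus the wild type mean for each gene of 11 lists on Rb-deficient array 1 (upward triangles) and array 2 (downward triangles), with bars at the list medians. The medians of the 4 acinar lists lie below 0 on both arrays and lower on array 2, beta cell genes are centred near 0 on this scale, and macrophage genes lie above 0, most on array 2.

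The promoters of the acinar genes were searched for the sites their regulators are known to bind. Of the 30 measured genes, 27 had an entry in the RefSeq promoter table (GRCm38.p6), with 28 annotated starts, and the 250 bases before each start were read on both strands. The letters TGGGAA, the core of the site for RBPJ and RBPJL, were present in 15 of 28, or 53.6%, against 21.6% of 32851 promoters of all genes. An E-box, CANNTG, was present in 82.1% against 66.2%, and one that did not overlap TGGGAA and lay within 30 bases of it in 8 of 28, or 28.6%, against 5.60%. This pairing resembles the site of the PTF1 complex, which joins an E-box and an RBPJ site. The E-box form CAGCTG, which is also a CANNTG, was in 17.9% against 13%, and AAGGTCA, the half-site of NR5A2 and other nuclear receptors, in 14.3% against 4.08%. A TATAAA lay between 40 and 15 bases before the start in 8 of 28 promoters, or 28.6%, against 2.71% of all. Among these 8 are the similar trypsinogen genes Try4, Prss1, Prss2 and Prss3, so they are not all separate cases. A match is a description of the letters and not evidence of binding.

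For each role with such a pair, the promoter shown is that of the gene with the largest difference among those holding a pair. That of Ctrb1 was added for its short spacing. Pnliprp2, Cpb1 and Ptf1a, which had the largest differences of their roles, held no such pair. Each is written 5′ to 3′ on the strand of the gene, ending at the base before the annotated start, with the E-box and the RBPJ-type core of each pair in capitals. The coordinates are of GRCm38.p6.
Rbpjl, chr2:164402944-164403193, plus strand: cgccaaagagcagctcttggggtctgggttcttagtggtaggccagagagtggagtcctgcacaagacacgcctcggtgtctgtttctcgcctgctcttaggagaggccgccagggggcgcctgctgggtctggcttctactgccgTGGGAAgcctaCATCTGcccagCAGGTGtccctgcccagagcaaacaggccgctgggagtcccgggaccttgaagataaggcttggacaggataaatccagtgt
Ctrb1, chr8:111691011-111691260, minus strand: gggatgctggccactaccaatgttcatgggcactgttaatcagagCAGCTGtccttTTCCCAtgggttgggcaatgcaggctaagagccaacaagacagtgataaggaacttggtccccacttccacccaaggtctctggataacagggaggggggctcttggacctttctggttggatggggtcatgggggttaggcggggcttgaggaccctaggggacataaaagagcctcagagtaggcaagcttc
Ctrl, chr8:105933863-105934112, minus strand: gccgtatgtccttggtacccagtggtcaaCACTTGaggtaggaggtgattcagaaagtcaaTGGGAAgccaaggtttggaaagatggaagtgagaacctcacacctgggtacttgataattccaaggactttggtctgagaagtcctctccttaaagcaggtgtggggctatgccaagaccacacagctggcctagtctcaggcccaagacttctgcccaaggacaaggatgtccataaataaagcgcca
Cel, chr2:28563404-28563653, minus strand: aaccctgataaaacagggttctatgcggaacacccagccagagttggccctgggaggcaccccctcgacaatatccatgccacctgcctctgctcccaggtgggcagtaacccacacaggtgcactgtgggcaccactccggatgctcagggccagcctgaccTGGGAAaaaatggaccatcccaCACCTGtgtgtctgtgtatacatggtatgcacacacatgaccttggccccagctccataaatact
Cpa1, chr6:30638968-30639217, plus strand: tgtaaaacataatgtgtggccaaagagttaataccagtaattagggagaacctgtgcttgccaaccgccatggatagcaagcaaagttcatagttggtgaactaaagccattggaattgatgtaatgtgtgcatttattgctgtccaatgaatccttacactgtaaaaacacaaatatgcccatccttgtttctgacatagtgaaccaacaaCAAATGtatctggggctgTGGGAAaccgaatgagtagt

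In Rbpjl, whose product is part of the complex, 2 E-boxes follow the core, with 5 and 16 bases between, and Ctrb1 has 5 bases between its E-box and the core on the other strand. The spacing is 16 bases in Cel, 12 in Cpa1 and 26 in Ctrl. By the letters, the 15 genes with TGGGAA had a median log2 difference of -1.18 (range -1.70 to -0.34) and the 12 without it -1.02 (range -1.83 to -0.34). The medians were -0.61 with CAGCTG (5 genes) and -1.11 without, -1.01 with AAGGTCA (4 genes) and -1.03 without, and -0.86 with TATAAA (10 genes) and -1.19 without. None of these differences was tested. Pnliprp2 and Pla2g1b, the genes with the largest differences, held none of the 4 motifs of the map in this window.

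**Figure D4:**
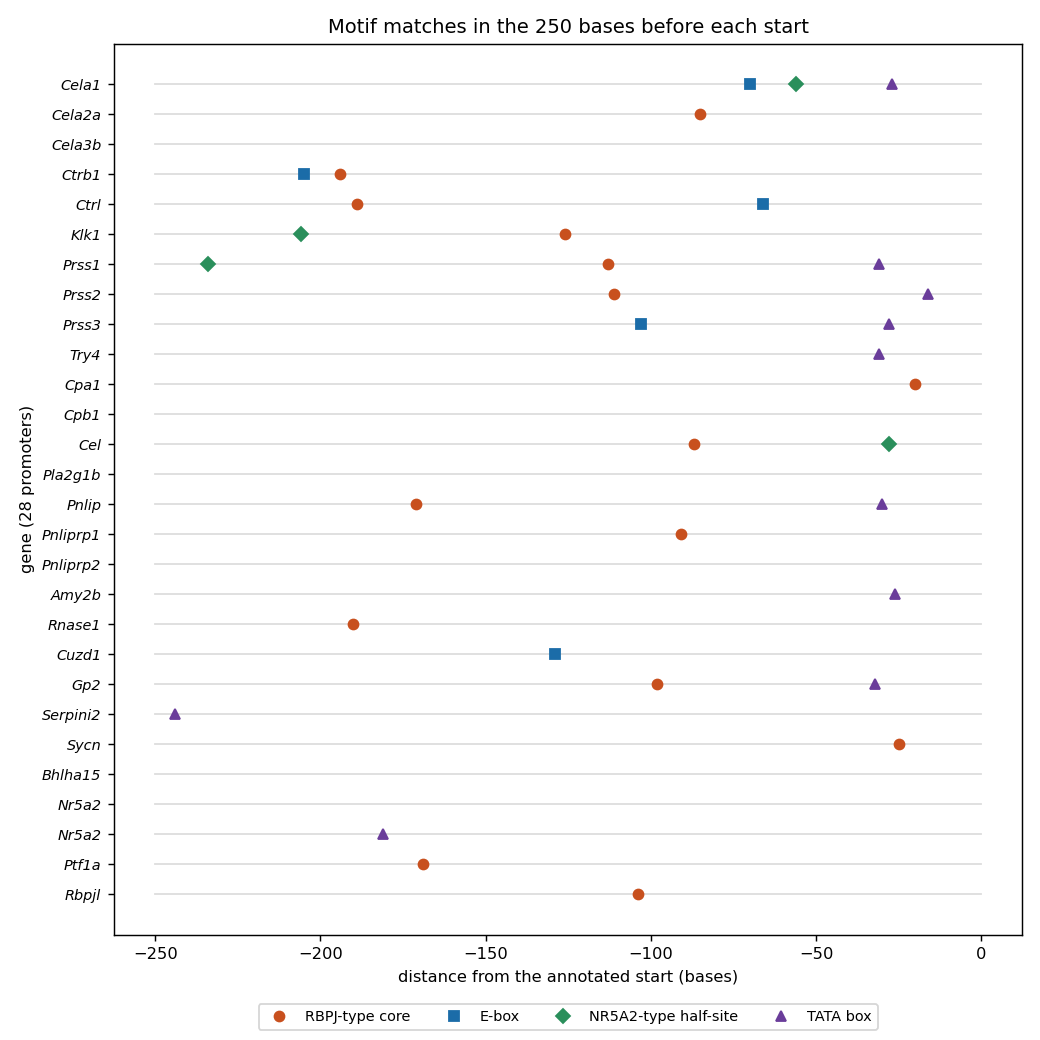
Positions of 4 motifs in the 250 bases before 28 annotated starts of 27 acinar genes, by distance from the start: the RBPJ-type core TGGGAA, the E-box CAGCTG, the NR5A2-type half-site AAGGTCA and TATAAA, on either strand. The core is in 15 promoters at varied distances, and 8 of the 10 promoters with TATAAA have it between 40 and 15 bases before the start.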

How the data were processed

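Spot intensity was read from the deposited scanner output. Background had been subtracted and spatial trends removed by Feature Extraction 12.0.3.1, with no scaling between arrays, on a design annotated to mm9, per the file headers. A deposited value table holds the same intensity times 1 constant per array (2.44, 2.15, 2.49 and 1.74, column medians 220.06, 180.7, 188.3 and 157.33), so it is linear and not centred; the statistic behind the constants is unknown.

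Control spots and spots marked as outliers were left out, log2 signals were scaled to the array's 75th percentile, spots averaged, and a probe stayed if both arrays of either group had it well above background. Accessions were named through RefSeq (GRCm38.p6), for 32994 of 56605 probes. The brightest probe stood for a gene. The group difference came from lmFit and eBayes of limma 3.58.1 (R 4.3.3), two-sided and without covariates, and p was adjusted by Benjamini-Hochberg across 26378 genes, at a threshold of 0.05; standard errors are limma's. The number of arrays limits the precision. All arrays shared 1 slide, so a slide block could not be made. Normexp was run on the median spot signal. Arrays were left out with probes held fixed. Summed signals are log2 of the list's summed relative signal. All 32 genes and the 4 second-list genes of smallest p are named. Members and lists were chosen with earlier results of these data known.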

Additional observations from a re-analysis of the deposited data

How the results depend on the processing

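None of the 30 genes was called in limma under any alternative run. Of 390 single-gene values, 382 kept their direction and the other 8 turned or reached 0. Many of the 382 could not turn. Each gene had 1 probe, above background on all arrays, so changing the filter or averaging probes returned the same difference. The replicate block did so as well, by construction. Array median scaling gave 0.067 for Cela1, 0.097 for Cela2a, 0.099 for Try4 and 0.031 for Bhlha15. Quantile normalization gave 0 for Cela2a, 0.019 for Try4 and 0.038 for Try5, and Prss1 ranged from -1.98 to 0.331 with 1 array left out, the latter without Rb-deficient array 2. Array median scaling also moved the medians to -0.417 for enzymes and -1.01 for granule genes, and limma then called 480 genes (234 higher, 246 lower); the cause was not tested. It lifted the median of all genes from -0.07 to 0.369. Relative to the median of all genes the enzymes stood at -0.787 under both scalings. That is so by construction, since each scaling takes 1 constant from all genes of an array. Beta cell marker scaling, chosen after the data were seen, gave 26 calls over all genes. With 1 array left out the medians ranged from -1.30 to -0.41 (enzymes), -1.94 to -0.85 (granule genes) and -1.79 to -0.916 (transcription factors), and the count without overlap from 22 to 30. The share of all genes without overlap and lower was then 29.8% and 33.1% where the count was 22, and 45.8% and 46.2% where it was 30, since 3 arrays overlap less often by construction. There the lone array was assumed to vary like the other group. The count was 17 under array median scaling, against 7.12% of all genes. Same-numbered arrays of the groups deviated together over all genes (r 0.295), but the titles give only a number. With the replicate block the medians were unchanged by construction, at -0.855, -1.45 and -1.41, and limma called 0 genes, 3160 having an unadjusted p under 0.05 against 1493. No spot was saturated.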
